A study of Danio rerio with 4 samples.

Results

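Forkhead genes encode transcription factors that share a winged-helix DNA-binding domain, the forkhead box, and are sorted into subclasses by letter. The forkhead genes described here are the 48 rows, of 32538 genes in the deposited table, whose lower-case symbol is fox followed by a letter and a number. A further 12 rows carry capitalised forkhead symbols and are not among the 48. Zebrafish embryos were sampled at 6 somites, or 12 h of development, in 2 libraries of tbx1 mutants carrying the vgo allele, which the labels also describe as null, and in 2 libraries of wild-type controls. The tip of the tail and some yolk had been cut off each embryo for genotyping, and polyadenylated RNA was taken from what remained. The labels give neither the parents of the embryos nor how many went into a library, so the spread between libraries may be technical, and p-values measure that spread alone.

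Several forkhead factors are known as early regulators of the tissues being laid down at this stage. FoxA factors act in endoderm and axial mesoderm, FoxC and FoxF factors in mesoderm, FoxD3 in neural crest, FoxI factors in placodes and epidermis, and FoxJ1 in motile cilia. Tbx1 is a T-box factor of pharyngeal mesoderm and endoderm, and in mouse Foxa2, Foxc1 and Foxc2 can activate Tbx1 through a forkhead site upstream of that gene. In RNA from whole embryos, a smaller number of cells of a type and a lower RNA level per cell cannot be told apart.

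tbx1 RNA itself was at 4.91 and 4.52 FPKM (fragments per kilobase of transcript, scaled to the library total) in the mutants, against 9.08 and 9.14 FPKM in the controls. The groups did not overlap, and the log2 difference of -0.88 (SE 0.0910) had an unadjusted limma p of 2.87e-04 and an adjusted p of 0.227. Read totals were not used here. Among the forkhead genes with a mean of at least 1 FPKM, the authors' 95% interval had a median relative half-width of 9.22% and 10.03% in mutants 1 and 2, against 8.30% and 9.30% in controls 1 and 2. Yolk syncytial layer genes, a list of which 12 were tested, summed to 11031 and 9841 FPKM in the mutants and to 11727 and 10756 FPKM in the controls. Tailbud genes, also 12 tested, summed to 218 and 293 FPKM in the mutants and to 227 and 325 FPKM in the controls. The tailbud sum was therefore lower in both libraries numbered 1 than in both numbered 2, whatever the genotype.

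RNA of most forkhead genes was present at 6 somites. Of the 48, 32 had a mean over all 4 libraries of at least 1 FPKM and were tested, and 16 lay below. Since FPKM is scaled per length, levels can be set beside each other. The median level was 7.14 FPKM over the forkhead genes tested and 8.39 FPKM over all 13448 genes tested. The highest was foxd3, the neural crest specifier, at 52.1 and 43.8 FPKM in the mutants, against 49.3 and 42.4 FPKM in the controls. Its mean exceeded that of 84.4% of all genes tested. The foxd3 locus overlaps 1 other gene locus, and reads of that gene may be part of its value. Next came foxa3, a gene of endoderm, whose levels were 24.9 and 26.0 FPKM in the mutants and 24.8 and 24.5 FPKM in the controls, and foxc1a, at 19.7 and 23.0 FPKM in the mutants and 22.7 and 26.0 FPKM in the controls. These 2 neighbours in rank overlapped in their values. A further 9 genes lay between 10 and 20 FPKM, 9 between 5 and 10 FPKM and 11 between 1 and 5 FPKM.

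The levels of all 48 genes summed to 327 and 326 FPKM in the mutants, against 337 and 319 FPKM in the controls, so the mutant sums lay between the control sums. foxd3 made up 15.9% and 13.4% of this sum in the mutants and 14.6% and 13.3% in the controls.

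**Figure D1:**
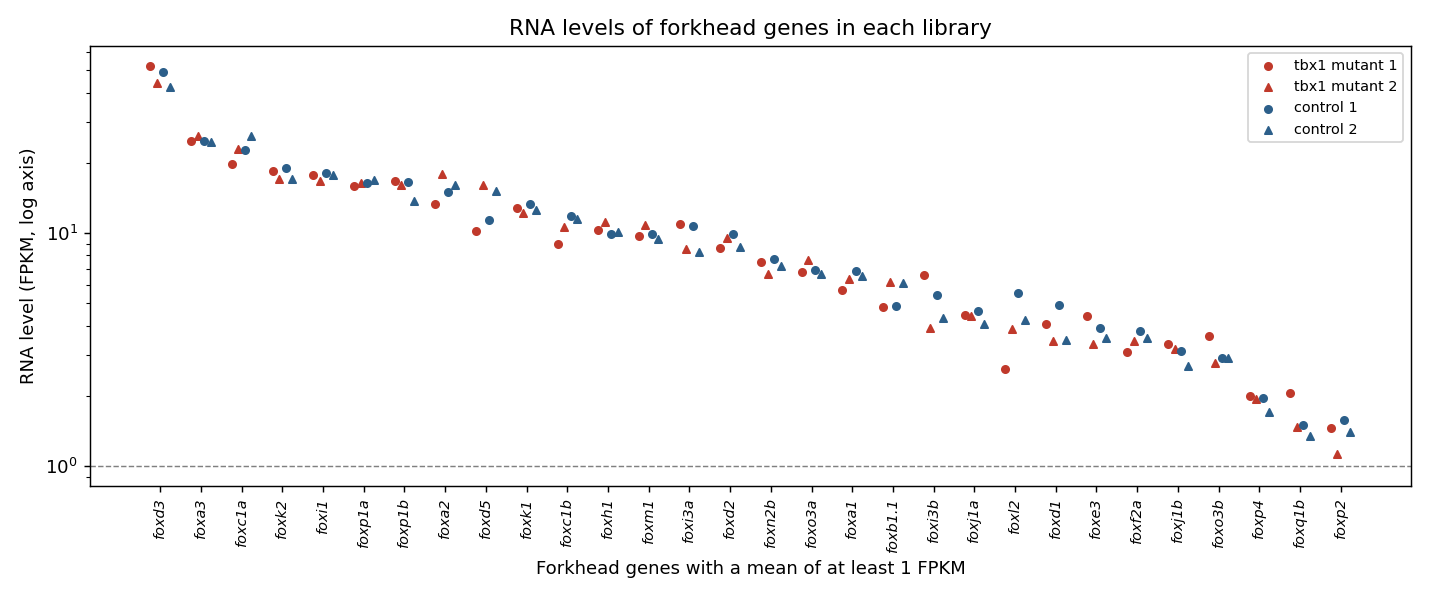
RNA level in FPKM (log axis) of 30 of the 32 forkhead genes with a mean of at least 1 FPKM, in order of mean level, with 1 point per library (red, tbx1 mutants; blue, controls; circles, libraries numbered 1; triangles, libraries numbered 2; dashed line, 1 FPKM). foxd3 stands highest and foxp2 lowest of those shown, and the red and blue points of most genes lie close together or are interleaved.

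The genes below 1 FPKM include factors known for organs that form later. foxe1, known for the thyroid, was listed at 0 in all 4 libraries. foxn1, the thymus factor, was at 0.00960 and 0.0108 FPKM in the mutants, against 0.0158 and 0 FPKM in the controls, and foxp3a and foxp3b, counterparts of the regulatory T cell factor, stayed at or below 0.103 FPKM in every library. At such levels these genes could not be compared. The members just under the limit were foxf1, a gene of lateral and visceral mesoderm, and foxf2b, its relative. foxf1 had 0.439 and 0.727 FPKM in the mutants, against 0.715 and 0.542 FPKM in the controls. foxf2b had 0.404 and 0.597 FPKM in the mutants, against 0.624 and 0.616 FPKM in the controls. foxf1 overlapped between the groups, while both mutant values of foxf2b were below both control values. Just above the limit stood foxp2, a gene of the developing brain, at 1.45 and 1.13 FPKM in the mutants and 1.57 and 1.40 FPKM in the controls, and its groups overlapped.

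No forkhead gene passed the comparison of mutants with controls. Of the 32 tested, 0 had a Benjamini-Hochberg adjusted p under 0.05 in limma, where 0.0669% of all genes tested did, and 0 had an unadjusted p under 0.05, where 1.99% did. All 32 had an adjusted p of 1.0 in limma after rounding. The log2 difference was above 0 for 17 and below 0 for 15, with a median of 0.0093, beside a median of 0.017 over all genes tested. Of all 13448 genes tested, 7695 were above 0 and 5753 below. The difference lay within 0.3 for 31 of the 32 (96.9%), beside 94.3% of all genes tested, with foxl2 the exception. A p that misses the threshold does not show equal levels. The intervals rest on the same spread between libraries, which may be technical, so they limit a difference only as far as that spread holds. For 31 genes (96.9%) the 95% interval lay within a 2-fold change in either direction, beside 95.6% of all genes tested. For 25 of the 32 (78.1%) it lay within a 1.5-fold change, beside 80.6% of all genes tested. With 2 libraries a group, the smallest two-sided p of an exact permutation test would be 0.333. The tests therefore rest on each gene's own spread together with the spread that limma pools across genes.

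**Figure D2:**
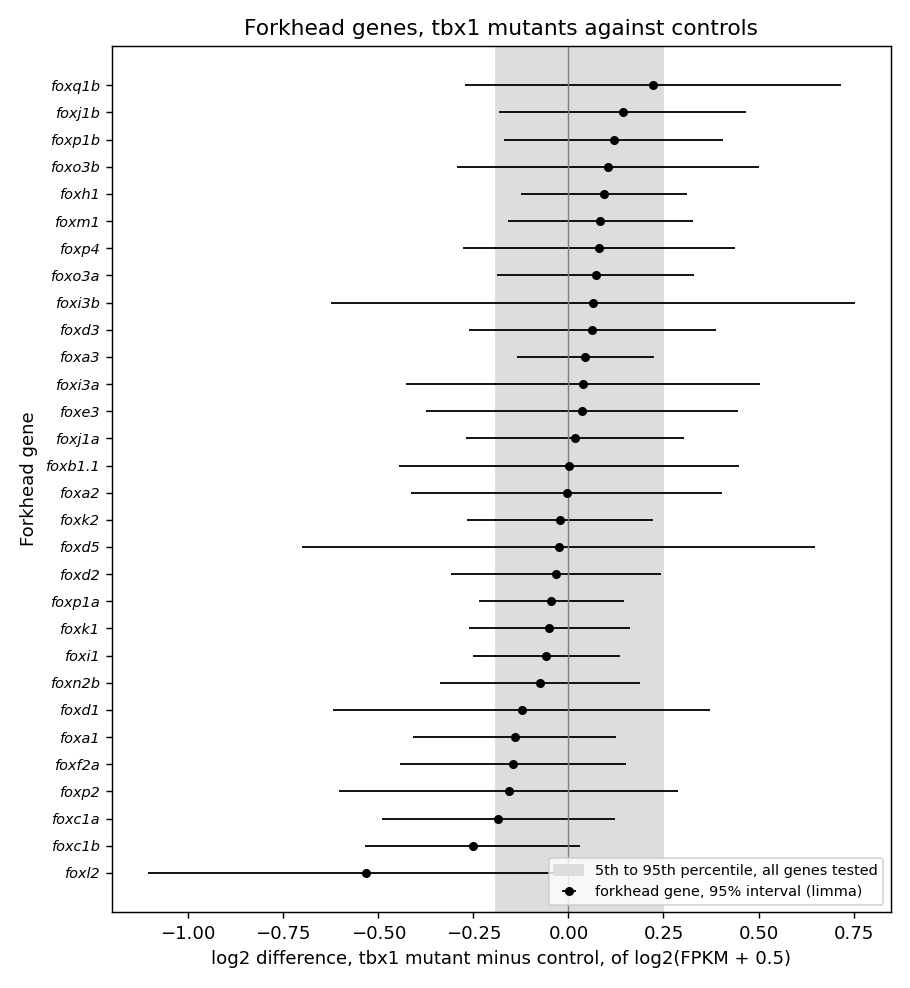
Log2 difference, tbx1 mutant minus control, of log2(FPKM + 0.5) for 30 of the 32 forkhead genes tested (points) with limma's 95% interval (bars); the grey band holds the 5th to 95th percentile of all genes tested, from -0.19 to 0.25. Every bar crosses 0, and foxl2, foxc1b and foxc1a lie at the lower end.

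For 3 forkhead genes both mutant values were above both control values (9.38% of the 32, beside 15.6% of all genes tested), and for 6 both were below (18.8%, beside 9.14%). Those above were foxa3, foxh1 and foxj1b, and those below were foxl2, foxc1b, foxa1, foxf2a, foxi1 and foxp1a. In either direction the count was 9 of 32 (28.1%), close to the 24.8% of all genes tested.

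The forkhead genes are taken next by role, in groups drawn up after values were seen. The 4 mesodermal genes tested all had a negative difference that missed the threshold, with a median of -0.17. Of all genes tested, 5753 of 13448 had a negative difference. foxc1a and foxc1b are co-paralogs needed in zebrafish for the patterning of paraxial mesoderm. foxc1b was at 8.93 and 10.6 FPKM in the mutants, against 11.8 and 11.5 FPKM in the controls. Its groups did not overlap, with mutant 1 the lowest, and its log2 difference was -0.25 (SE 0.107, 95% interval -0.53 to 0.030; unadjusted p = 0.0695 in limma). The values of foxc1a, given above, overlapped between mutant 2 and control 1. Its log2 difference was -0.18 (SE 0.117, 95% interval -0.49 to 0.12; unadjusted p = 0.178 in limma). Both libraries numbered 2 were higher than both numbered 1 for foxc1a, and within each number the mutant was lower than the control, by a log2 difference of -0.20 between the libraries numbered 1 and -0.17 between those numbered 2. The tailbud sum also separated by number, as given above, and its part in these values was not tested. The sign was the same within both numbers for 22 of the 32 forkhead genes tested, beside 6984 of all 13448 genes tested.

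foxf2a, a gene of pharyngeal and other mesenchyme, was at 3.10 and 3.42 FPKM in the mutants, against 3.77 and 3.54 FPKM in the controls. The groups did not overlap, but the log2 difference of -0.15 (SE 0.113) had an unadjusted p of 0.257 in limma. foxd2, expressed in paraxial mesoderm, averaged 9.08 ± 0.611 FPKM in the mutants and 9.31 ± 0.842 FPKM in the controls (SD, n = 2 each), with a log2 difference of -0.033. foxl1, a gene of gut mesenchyme, averaged 0.476 FPKM in the mutants and 0.452 FPKM in the controls and was not tested.

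Several of these genes sit close together in the genome, with 1 other gene between foxc1a and foxf2a. On Zv9 chromosome 2, foxc1a (868218 to 870389), foxf2a (895048 to 897768) and foxq1a (902564 to 903497) form a trio, and on chromosome 20 foxq1b (26713539 to 26715002), foxf2b (26719867 to 26722039) and foxc1b (26731981 to 26733930) form another, in the coordinates of the authors' table. foxc1 was the highest member of each trio. On chromosome 2 the mean levels of foxc1a, foxf2a and foxq1a were 21.4, 3.26 and 0.431 FPKM in the mutants, against 24.3, 3.65 and 0.400 FPKM in the controls. On chromosome 20 those of foxc1b, foxf2b and foxq1b were 9.74, 0.501 and 1.76 FPKM in the mutants, against 11.7, 0.620 and 1.42 FPKM in the controls. In order of level foxf2 was thus above foxq1 on chromosome 2 and below it on chromosome 20. foxq1b was at 2.06 and 1.46 FPKM in the mutants and at 1.499 and 1.35 FPKM in the controls, and its log2 difference of 0.22 (SE 0.188; unadjusted p = 0.293 in limma) lay on the other side of 0 from that of foxc1b. Mutant 1 alone stood apart for foxq1b. On chromosome 8, foxe3 and foxd2 lie 4069 bp apart.

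The forkhead genes had short loci: 28 of the 48 (58.3%) spanned under 4000 bp in the authors' coordinates, beside 33.8% of all genes in the table. The 48 genes were spread over 22 chromosomes. On chromosome 5, which carries tbx1, there were 2. foxd1, a forebrain and retina gene, was at 4.07 and 3.44 FPKM in the mutants and at 4.89 and 3.46 FPKM in the controls (log2 difference -0.12, SE 0.188). foxn4, a gene of retinal progenitors and, in zebrafish, of the atrioventricular canal, had 0.360 and 0.509 FPKM in the mutants and 0.437 and 0.325 FPKM in the controls. Both genes overlapped between the groups.

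foxl2, known in mammals for the ovary and the eyelid, had the largest difference among the forkhead genes tested. It was at 2.61 and 3.85 FPKM in the mutants, against 5.50 and 4.21 FPKM in the controls. The groups did not overlap, but mutant 2 and control 2 were close together and their deposited 95% intervals, 3.16 to 4.54 and 3.53 to 4.91 FPKM, overlapped. The means were 3.23 ± 0.879 FPKM in the mutants and 4.85 ± 0.908 FPKM in the controls (SD, n = 2 each), a ratio of 0.665. The log2 difference was -0.53 (SE 0.219; unadjusted p = 0.0626 in limma), and its 95% interval ran from -1.11 to 0.042. Without mutant 1 the difference was -0.29, and without control 1 it was -0.36. The row with the capitalised symbol FOXL2, not one of the 48, was at 0.938 and 0.708 FPKM in the mutants and at 0.826 and 0.649 FPKM in the controls, overlapping between the groups.

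The differences of the forkhead genes of endoderm and axial mesoderm were of either sign, and none passed the test. foxa1, expressed in endoderm and pharyngeal pouches, was at 5.66 and 6.37 FPKM in the mutants, against 6.85 and 6.50 FPKM in the controls, without overlap (log2 difference -0.14, SE 0.102; unadjusted p = 0.227 in limma). foxa2, the gene of floor plate, notochord and endoderm, was at 13.3 and 17.9 FPKM in the mutants and at 14.9 and 16.03 FPKM in the controls, so the control values lay between the mutant values. foxa3 had a log2 difference of 0.044 (SE 0.0687). Among 9 genes tested from a list drawn up as endoderm partners of the FoxA factors, 0 passed, and the median difference was -0.012. The list also holds shha, shhb and ntn1a, so its median is not one of endoderm genes alone. gata6, a zinc finger factor of endoderm and heart, had the lowest p of that list at a difference of -0.083, followed by the axon guidance gene ntn1a at 0.094.

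Among the forkhead genes of crest, placodes and epidermis, the difference between genotypes was smaller than the gap between the 2 libraries of either genotype for foxd3, foxi3a, foxi3b and foxe3. foxd3 had a log2 difference of 0.063 (SE 0.124) and was lower in both libraries numbered 2. foxi1, required for the otic placode, was at 17.7 and 16.8 FPKM in the mutants, against 18.1 and 17.8 FPKM in the controls, without overlap but by a log2 difference of -0.058. foxi3a and foxi3b mark ionocyte progenitors in the epidermis. foxi3a was at 10.9 and 8.54 FPKM in the mutants and at 10.7 and 8.25 FPKM in the controls. foxi3b was at 6.58 and 3.89 FPKM in the mutants and at 5.42 and 4.30 FPKM in the controls. Both were lower in the libraries numbered 2 of each genotype. foxe3, the lens gene, likewise had 4.38 and 3.34 FPKM in the mutants and 3.91 and 3.54 FPKM in the controls. foxi2 lay far below the limit of testing and was chosen after its values were seen. It was at 0.0680 and 0.0766 FPKM in the mutants and at 0.157 and 0.202 FPKM in the controls, and the lower deposited bound was 0 in both mutants.

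In a list of neural crest partners of FoxD3, 13 of 14 genes tested had a positive difference (median 0.0998), and 0 passed. Of all genes tested, 7695 of 13448 had a positive difference. For 6 of the 14 (42.9%) both mutants were above both controls, beside 15.6% of all genes tested. The list summed to 437 and 376 FPKM in the mutants and to 396 and 360 FPKM in the controls. These sums overlapped between the genotypes and separated by library number, with both numbered 1 above both numbered 2. Within each number the mutant sum was the higher. The lowest p belonged to zic2a (0.15) and pax3a (0.22), both neural plate border factors. Of 13 otic and epibranchial genes set beside FoxI1 the median was 0.0064, with the growth factor gene fgf3 at -0.21 and the homeobox gene six4b at 0.15, and 0 passed.

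Neural forkhead genes differed between libraries of 1 genotype. foxd5, a gene of the neural plate and tailbud, was measured at 10.2 and 16.1 FPKM in the mutants and 11.3 and 15.1 FPKM in the controls. foxb1.1, a gene of the neural tube, had 4.83 and 6.15 FPKM in the mutants and 4.84 and 6.11 FPKM in the controls. Both foxd5 and foxb1.1 were higher in the libraries numbered 2, as the tailbud sum was, and the part of the tail tissue in these values was not tested. The brain genes foxd1 and foxp2, whose values are given above, went the other way and were lower in both libraries numbered 2. The genotype differences were -0.025 for foxd5 (SE 0.257) and 0.0019 for foxb1.1 (SE 0.170). A list of forebrain genes summed to 285 and 291 FPKM in the mutants and to 289 and 285 FPKM in the controls. Of its 12 genes tested, 11 had a positive difference (median 0.092), beside 7695 of all 13448 genes tested, and 0 passed. The exception was hesx1, a repressor of the anterior neural plate, at 52.6 and 44.5 FPKM in the mutants, against 58.0 and 62.2 FPKM in the controls (log2 difference -0.31, SE 0.105; unadjusted p = 0.0345 in limma, adjusted p = 1.0). Leaving out 1 library moved the hesx1 difference to between -0.43 (without mutant 1) and -0.19 (without mutant 2). pax6b followed at 0.19.

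**Figure D3:**
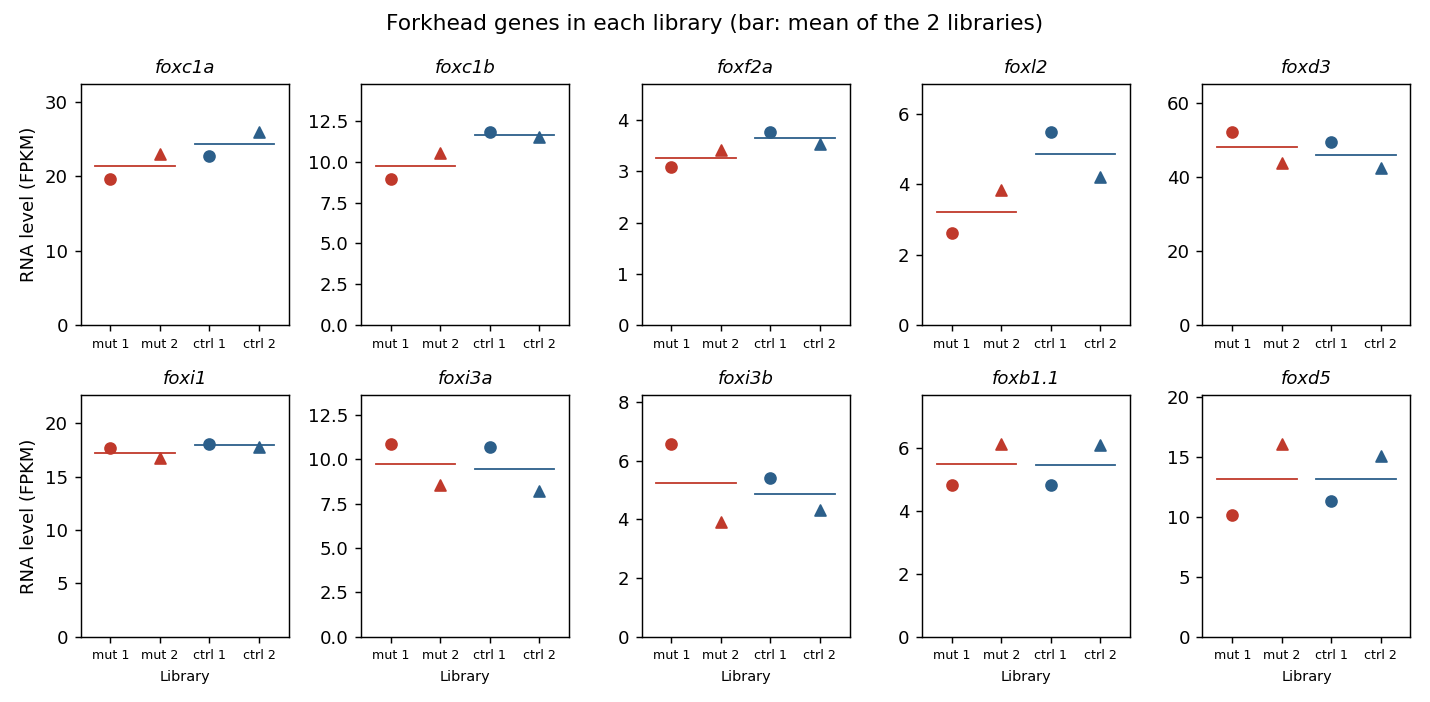
RNA level in FPKM of 10 forkhead genes in each library (red, tbx1 mutants; blue, controls; circles, libraries numbered 1; triangles, libraries numbered 2; bars, mean of 2 libraries; each axis starts at 0). The upper row holds foxc1a, foxc1b, foxf2a and foxl2, whose mutant means lie below the control means without passing the test, and foxd3. In the lower row foxi1 is nearly level. The points of foxi3a, foxi3b, foxb1.1 and foxd5 separate by library number and overlap between genotypes, as do those of foxc1a and foxd3 in the upper row.

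The separation by library number was common among the forkhead genes. For 20 of the 32 tested the libraries numbered 2 lay entirely on 1 side of those numbered 1 (16 lower and 4 higher), a share of 62.5%, beside 52.6% of all genes tested. The 4 higher ones were foxa2, foxd5, foxb1.1 and foxc1a. The titles give the number as that of a replicate, and no label says what libraries of the same number share.

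Among forkhead genes tied to Nodal signalling and cilia, foxh1 and foxj1b were higher in both mutants by amounts that missed the threshold. foxh1, the partner of Smad proteins in the Nodal response, was at 10.3 and 11.1 FPKM in the mutants, against 9.92 and 10.1 FPKM in the controls (log2 difference 0.093, SE 0.0831; unadjusted p = 0.316 in limma). Of 12 Nodal partners and targets tested, 8 were positive (median 0.082), beside 7695 of all 13448 genes tested, and 0 passed. The one with the lowest p was dvr1, the TGF-beta family ligand gene that acts with Nodal, at 11.3 and 8.06 FPKM in the mutants, against 15.7 and 14.7 FPKM in the controls (log2 difference -0.65, SE 0.170; unadjusted p = 0.0144 in limma, adjusted p = 1.0). Leaving out 1 library moved the dvr1 difference to between -0.87 (without mutant 1) and -0.42 (without mutant 2). smad3b, which encodes a signal-transducing Smad, followed at 0.34.

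foxj1a and foxj1b encode master regulators of motile cilia. foxj1b was at 3.34 and 3.16 FPKM in the mutants, against 3.12 and 2.69 FPKM in the controls (log2 difference 0.14, SE 0.123), and foxj1a at 4.44 and 4.38 FPKM in the mutants and at 4.64 and 4.08 FPKM in the controls. The foxj1b row spans 195823 bp and overlaps 3 other gene loci, so reads of those genes may be part of its value. The same limit holds for foxd3, foxb1.1 and foxp2, whose rows each overlap 1 other locus. In 10 motile cilia genes tested the median was 0.038 and 0 passed. ccdc103, needed for the assembly of dynein arms, had a difference of -0.34, and the ciliogenesis factor gene rfx4 one of 0.14.

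Broadly expressed forkhead genes among the 48 were close between the genotypes. foxm1, the mitotic regulator, was at 9.72 and 10.8 FPKM in the mutants and at 9.89 and 9.38 FPKM in the controls (log2 difference 0.084, SE 0.0925). Its 15 listed mitotic targets had a median of 0.0046, with the cyclin gene ccnb2 at -0.099 and the kinase gene aurka at 0.067, and 0 passed. foxk2, a transcriptional repressor gene, was at 18.5 and 17.0 FPKM in the mutants and at 19.1 and 17.1 FPKM in the controls. foxn2b was at 7.48 and 6.67 FPKM in the mutants and at 7.70 and 7.24 FPKM in the controls. Both overlapped between the groups. Outside the 48, the row FOXK2 (1 of 2) was at 25.2 and 27.4 FPKM in the mutants and at 25.1 and 26.0 FPKM in the controls. Its log2 difference was 0.040. The capitalised rows FOXN2 (1 of 2) and FOXO4 had differences of 0.39 and 0.24 (unadjusted p = 0.192 and 0.182 in limma).

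The FoxO genes, which respond to insulin signalling and stress, were read at 2 levels. foxo3a was at 6.79 and 7.62 FPKM in the mutants and at 6.96 and 6.68 FPKM in the controls, and foxo3b at 3.59 and 2.77 FPKM in the mutants and at 2.91 and 2.89 FPKM in the controls, while foxo1a and foxo1b stayed below 0.4 FPKM. Of 13 FoxO target genes 11 were positive (median 0.030), beside 7695 of all 13448 genes tested, and 0 passed. Catalase (cat) was at 0.27 and the insulin receptor gene insrb at 0.17. In the FoxP subclass, foxp1a was at 15.8 and 16.4 FPKM in the mutants, against 16.4 and 16.8 FPKM in the controls, and foxp1b at 16.7 and 16.1 FPKM in the mutants and at 16.5 and 13.8 FPKM in the controls. The difference was -0.045 for foxp1a and 0.12 for foxp1b.

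In 5 pairs of co-paralogs with both genes tested, levels were also compared as a ratio within each library. foxc1b stood at 0.453 and 0.459 of foxc1a in the mutants, against 0.522 and 0.443 in the controls. The level of foxi3b was 0.604 and 0.456 of that of foxi3a in the mutants, against 0.507 and 0.522 in the controls. The groups overlapped in both pairs. The ratio of foxo3a to foxo3b was 1.89 and 2.76 in the mutants and 2.39 and 2.31 in the controls, and that of foxp1a to foxp1b 0.947 and 1.02 in the mutants and 0.996 and 1.22 in the controls, again with overlap. foxj1a over foxj1b was the pair without overlap, at 1.33 and 1.38 in the mutants, against 1.49 and 1.52 in the controls. The foxj1b value may hold reads of other loci, as given above, and such ratios were not computed for pairs of other genes. The sources used here do not give how reads shared by near-identical stretches of a pair were assigned.

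Paraxial mesoderm genes of the FoxC1 domain had a median difference of -0.030 over 13 tested, with 7 below 0 and 6 above, and 0 passed. The genes of lowest p were the Notch ligand gene dld at 0.092 and the protocadherin gene pcdh8 at 0.12 (unadjusted p = 0.290 and 0.387 in limma). The largest difference was that of myf5, at -0.17 (unadjusted p = 0.444 in limma). The yolk syncytial list had 11 of 12 below 0 (median -0.069), beside 5753 of all 13448 genes tested. Its protease inhibitor genes serpina1l and serpina1 were at -0.090 and -0.084. The tailbud list had 8 of 12 below 0 (median -0.052), with the T-box gene tbx16 at 0.21 and hoxb10a at -0.23. In all 11 lists, 133 genes tested when each is counted once, 0 passed. An unadjusted limma p under 0.05 was found for 2, dvr1 and hesx1, beside 1.99% of all genes tested. The size of both differences depended on single libraries, as given above.

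**Figure D4:**
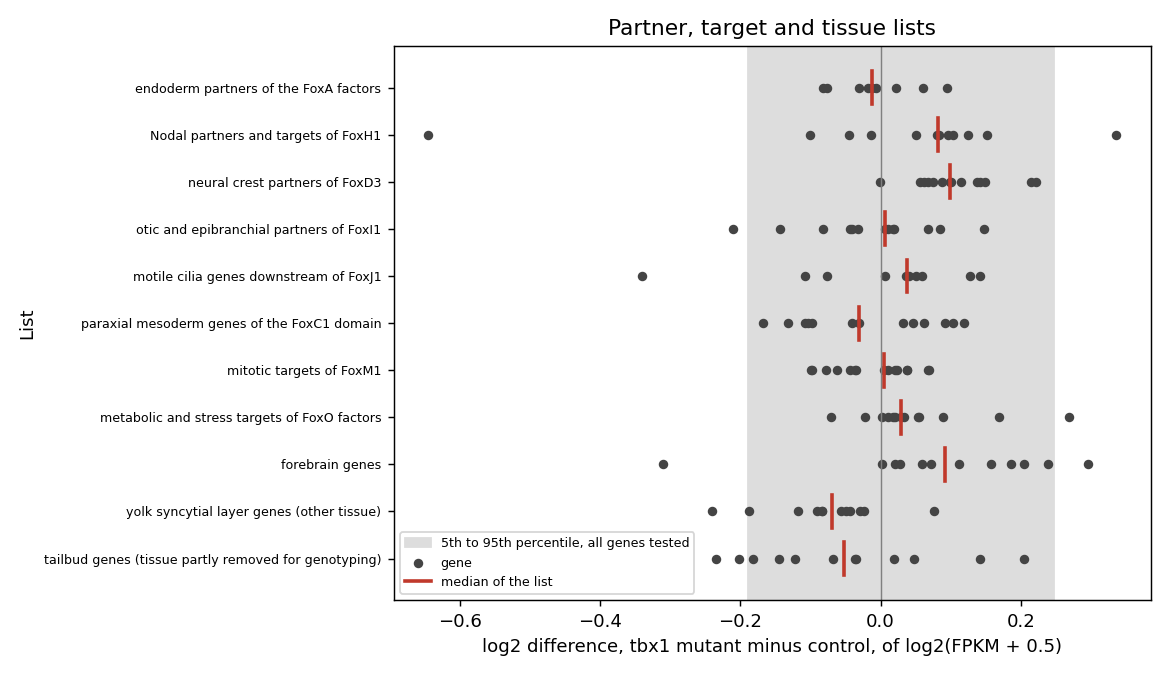
Log2 difference, tbx1 mutant minus control, of log2(FPKM + 0.5) for the tested genes of 11 lists set beside the forkhead genes (points) with each list's median (red line); the grey band holds the 5th to 95th percentile of all genes tested. Most points lie inside the band, and dvr1 at -0.65 is the farthest outside it.

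The level of some forkhead genes is less certain than that of others. Of 128 values of the forkhead genes tested, 25 (19.5%) lay outside the authors' own 95% interval for that value, beside 26.0% of the values of all genes tested. All 4 values did so for 6 genes, among them foxa3, foxp1b, foxh1, foxm1 and foxo3a. In these named genes every value lay above its upper bound. For foxa3, for example, the interval in mutant 1 ran from 19.6 to 21.8 FPKM, below the listed value of 24.9 FPKM. In control 1 the interval ran from 19.7 to 21.8 FPKM, below the listed 24.8 FPKM. The genes with the lowest p, foxl2 and foxc1b, had all 4 values inside their intervals.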

How the data were processed

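Per the labels' protocols, mRNA was enriched by its polyA tail, prepared with TruSeq reagents and read in paired ends. Per the submitters' processing notes, the Zv9 (danRer7) build was used with TopHat2 2.0.8, Cuffdiff 2.0.2 and Cufflinks 2.1.1; the sources used here do not give their order, the annotation or any use of strand. The table that the authors deposited holds FPKM values with 95% bounds and an estimate status; per the file headers the columns are titled RPKM, and a stray last header line says FPKM.

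Of 32538 genes, 32400 had the status OK in all 4 libraries, all 48 forkhead genes among them, and 13448 of these had a mean of at least 1 FPKM. log2(FPKM + 0.5) was fitted on genotype with limma 3.58.1 in R 4.3.3 (empirical Bayes with mean-variance trend, two-sided, 4.66 degrees of freedom, Benjamini-Hochberg over all genes tested, threshold 0.05). The pseudocount understates fold changes of low genes. On simulated data the model recovered the size of known changes. Those data gave genes of like level a common spread, so they do not show how often changes would be called here. Figures were drawn with matplotlib 3.10.9.

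The members and the 11 lists were chosen with earlier results of these data known. Values in every library are given for the highest member of each subclass, the 6 of lowest p, co-paralog pairs with both genes tested, members on chromosome 5 and the 2 on either side of the 1 FPKM limit; from each list the 2 genes of lowest p are named. Some genes and results set by these rules are not reported here. Role groups and foxi2 were chosen after values were seen. Settings varied were the pseudocount (0.1 or 1), the minimum (none, or 5 FPKM), quantile and median-ratio scaling, a block for the replicate number, loci under 300 bp left out, no trend, robust empirical Bayes and leaving out each library.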

Additional observations from a re-analysis of the deposited data

How the results depend on the processing

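The count of forkhead genes called was 0 as reported and under all 14 alternatives, and of 48 genes named with a test none passed under any alternative in limma. The count over all genes, 9, was 1 with no minimum, 16 with robust empirical Bayes and between 28 and 39 when 1 library was left out. An unadjusted p under 0.05 was reached by foxi2 with no minimum, by foxl2 without loci under 300 bp, with robust empirical Bayes and without mutant 2, and by foxc1b without mutant 2. The median forkhead difference of 0.0093 ranged from -0.060 to 0.068 when 1 library was left out, and was -0.020 after quantile and -0.0087 after median-ratio scaling. With the replicate number as a block, forkhead calls stayed at 0 and all calls at 9, with an unadjusted p of 0.0254 for foxc1a (adjusted p = 0.920 in limma). Deviations of same-numbered libraries correlated at 0.347 over 13202 genes with loci of at least 300 bp. The correlation was -0.0051 over all genes tested and 0.641 over the forkhead genes. Genes are not independent replicates, and no label says what same-numbered libraries share.

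The sign turned after quantile normalization for foxb1.1 (-0.034), foxe3 (-0.0044) and foxj1a (-0.027), and after median-ratio scaling for foxb1.1 (-0.016) and foxj1a (-0.0011); the cause was not tested. Leaving out each library in turn, the sign turned for 16 of the 48 genes. Their ranges were -0.16 to 0.16 for foxb1.1, -0.34 to 0.099 for foxd1, -0.061 to 0.19 for foxd3, -0.14 to 0.21 for foxe3, -0.14 to 0.22 for foxi3a, -0.28 to 0.41 for foxi3b, -0.067 to 0.10 for foxj1a, -0.10 to 0.055 for foxk2, -0.15 to 0.0030 for foxn2b, -0.0061 to 0.15 for foxo3a, -0.059 to 0.27 for foxo3b and -0.0064 to 0.24 for foxp1b, and among list genes -0.56 to 0.087 for hoxb10a, -0.067 to 0.26 for ntn1a, -0.015 to 0.25 for pcdh8 and -0.037 to 0.45 for tbx16. The sign held for foxl2 (-0.78 to -0.29), foxc1b (-0.37 to -0.14), foxf2a and foxa1. It could not turn for these genes, because their groups did not overlap. Among forkhead genes with overlapping groups the sign held for foxc1a (-0.30 to -0.075) and foxp2 (-0.29 to -0.027). On the positive side it held for foxm1 (0.013 to 0.16) and foxq1b (0.031 to 0.41). With 2 libraries per group, a lone library is taken to vary like the other group.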
